A study of Mus musculus with 6 samples.

Results

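Neurexins and neuroligins are adhesion proteins that face each other across the synapse. The 5 genes of these families described here, Nrxn2, Nrxn3, Nlgn1, Nlgn2 and Nlgn3, were chosen by name among the 19938 genes measured, and each was represented by 1 probe set. They were measured on 6 arrays of cells from mouse embryonic stem cells that were differentiated toward cortical neurons in floating aggregates, with TGF-beta and WNT signaling inhibited in the first days. The cells came from 1 knock-in line of 129SVEV background, CTIP2:GFP, in which an IRES-GFP reporter and a retained Neo cassette lie behind the coding sequence of Bcl11b, the gene that encodes CTIP2, a transcription factor of layer V projection neurons. CTIP2:GFP+ and CTIP2:GFP- cells were separated by fluorescence-activated sorting on day 11, day 12 and day 13, and each fraction gave 1 array on each day. Both fractions carry the knock-in alleles and had the same treatment, so they differ in the reporter on which they were sorted. The study made the arrays to look for a surface protein that marks the GFP+ cells.

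Neurexins sit mainly on the presynaptic membrane. Each neurexin gene has several promoters that give long alpha and short beta forms, and extensive alternative splicing sets which partners a form can bind. Neuroligins sit on the postsynaptic membrane, where Nlgn1 works mainly at excitatory synapses, Nlgn2 at inhibitory synapses and Nlgn3 at both. Inside the cell both families end in a tail that binds PDZ-domain scaffolds. A probe set of the array used here, GeneChip Mouse Gene 1.0 ST, combines several probes into a single value, so alpha and beta forms and splice variants were not resolved.

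All values are RMA signals on the log2 scale, and a difference is GFP+ minus GFP- on that scale, so a difference of 1 is 2-fold. The fractions were compared within days with limma, with a p-value adjusted over all 19938 genes and a threshold of 0.05. The errors rest on the spread between days, which limma moderates toward a variance shared by all genes. The error of a gene can therefore be smaller or larger than its own days alone would give. Array signals depend on the probes, so the level of 1 gene was not set against the level of another. The GFP- array of day 13 was the least like the other 5. Its values had an SD of 1.11, against 1.29 to 1.48 elsewhere, and its correlation with the others across probe sets was 0.863 to 0.927. Bcl11b, the gene of the sorted reporter, was higher in GFP+ cells by 1.87 (standard error 0.19, adjusted p = 0.025, limma), with differences of 2.32, 1.64 and 1.65 on day 11, day 12 and day 13.

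All 5 neurexin and neuroligin genes had a higher signal in GFP+ cells than in GFP- cells of the same day on all 3 days, which held for 16.9% of all genes. Their signals were bright, between the 76.8 and 99.1 percentiles of all probe sets of an array, while the shares over all genes include dim ones. Nrxn3 had the largest difference at 2.02, followed by Nrxn2 at 1.02, Nlgn3 at 0.83, Nlgn1 at 0.28 and Nlgn2 at 0.21. The median of the 5 differences was 0.83, and the median over all genes was -0.05, with 5th and 95th percentiles of -0.49 and 0.71. Only Nrxn2 passed the test, which is 1 of 5 genes, against 0.797% of all genes called higher, and 0 of the 5 were called lower, against 0.567%. At an unadjusted p under 0.05, 3 of the 5 were higher, against 9.58% of all genes, and 0 were lower, against 5.96%. The mean difference was over 2-fold for Nrxn3 and Nrxn2, 2 of 5 genes, against 1.97% of all genes. Every GFP+ array was above every GFP- array for Nrxn2, Nrxn3 and Nlgn3, 3 of 5 genes, against 9.05% of all genes. With a further quantile normalization of the arrays, Nlgn1 and Nlgn2 were lower in GFP+ cells on day 11 and day 13, and the directions of the other 3 genes held on every day. Their day 13 differences shrank, from 1.12 to 0.46 for Nrxn2, from 1.02 to 0.35 for Nlgn3 and from 3.26 to 2.76 for Nrxn3.

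**Figure D1:**
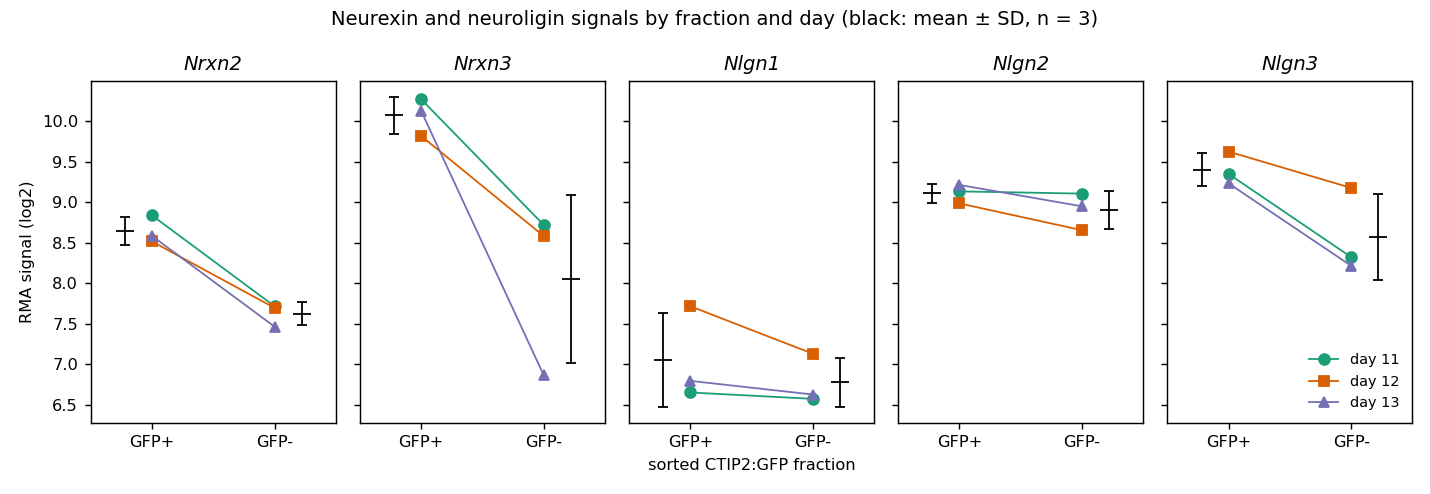
RMA signal (log2, vertical axis) of each gene in CTIP2:GFP+ and CTIP2:GFP- cells, with a colored point for each day, lines that join the arrays of 1 day, and black marks for the mean and SD of 3 arrays. The fractions do not overlap for Nrxn2, Nrxn3 and Nlgn3, they overlap for Nlgn1 and Nlgn2, and the lowest Nrxn3 signal is the day 13 GFP- array at 6.86.

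Nrxn2 encodes a neurexin, the presynaptic receptor of the pair. Its signal was 8.84, 8.51 and 8.58 in GFP+ cells and 7.71, 7.69 and 7.46 in GFP- cells on day 11, day 12 and day 13. The 3 GFP+ arrays all lay above the 3 GFP- arrays, and within each fraction the days differed by at most 0.32 in GFP+ cells and 0.25 in GFP- cells. The mean was 8.64 ± 0.17 in GFP+ cells and 7.62 ± 0.14 in GFP- cells (SD, n = 3 each). The differences by day were 1.12, 0.82 and 1.12, and their mean of 1.02 had a standard error of 0.15, a 95% interval of 0.66 to 1.38 and an adjusted p of 0.0447 in limma, a fold of 2.03. This call lies close to the threshold and was lost when day 11 was left out (difference 0.97, adjusted p = 0.0858) or day 13 was left out (0.97, adjusted p = 0.0761), while without day 12 the difference was 1.12 with an adjusted p of 0.0145. With a day left out, the error leaned more on the variance shared by all genes. The standard error of Nrxn2 was 0.30, 0.22 and 0.14 without day 11, day 12 and day 13. After quantile normalization the Nrxn2 differences by day were 0.90, 0.86 and 0.46. Over all 12 alternatives the adjusted p of Nrxn2 ran from 0.0111 to 0.211.

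Nrxn3 encodes a further neurexin. The GFP+ arrays held signals of 10.27, 9.82 and 10.13 on day 11, day 12 and day 13, a range of 0.45. In GFP- cells the signals were 8.72, 8.58 and 6.86, a range of 1.86. The fractions did not overlap, and the low value was the day 13 GFP- array, which lay 1.72 below the GFP- array of day 12. The mean was 10.07 ± 0.23 in GFP+ cells and 8.05 ± 1.03 in GFP- cells (SD, n = 3 each). The daily differences of 1.55, 1.24 and 3.26 (SD 1.09) correspond to folds of 2.93, 2.35 and 9.61. Nrxn3 ranked 24th of the 19938 genes by its mean difference of 2.02, a fold of 4.05, and it did not pass the test (standard error 0.39, 95% interval 1.05 to 2.99, adjusted p = 0.0814, limma). Without the day 13 GFP- array, and with no term for day, the difference was 1.42 and the adjusted p was 0.0251, and over all 12 alternatives the adjusted p ran from 0.00011 to 0.49.

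Nlgn3 encodes a neuroligin of both excitatory and inhibitory synapses. Its signal in GFP+ cells was 9.35, 9.62 and 9.23 on day 11, day 12 and day 13. In GFP- cells it was 8.32, 9.18 and 8.21. Day 12 was the highest day in both fractions, and the day 12 GFP- array came within 0.45 of its GFP+ partner and stayed below the lowest GFP+ array. The mean was 9.40 ± 0.20 in GFP+ cells and 8.57 ± 0.53 in GFP- cells (SD, n = 3 each). The differences were 1.03, 0.45 and 1.02, a mean of 0.83 and a fold of 1.78, which did not pass the test (standard error 0.17, 95% interval 0.40 to 1.26, adjusted p = 0.093, limma). Without day 12 the difference was 1.02 with an adjusted p of 0.0218, the lowest of 12 alternatives, of which the highest was 0.604.

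Nlgn1 encodes the neuroligin of excitatory synapses. Its GFP+ signals were 6.65, 7.72 and 6.79 and its GFP- signals were 6.57, 7.13 and 6.63 on day 11, day 12 and day 13. Day 12 was again the highest day in both fractions, and the day 12 GFP- array was above the GFP+ arrays of day 11 and day 13. The mean was 7.05 ± 0.58 in GFP+ cells and 6.78 ± 0.31 in GFP- cells (SD, n = 3 each). The differences of 0.08, 0.59 and 0.17 gave a mean of 0.28, and the 95% interval of -0.12 to 0.68 includes 0 (standard error 0.16, adjusted p = 0.503, limma).

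Nlgn2 encodes the neuroligin of inhibitory synapses. The GFP+ arrays gave 9.13, 8.98 and 9.21, and the GFP- arrays gave 9.11, 8.65 and 8.95 on day 11, day 12 and day 13. The fractions overlapped, and on day 11 they were 0.03 apart. The mean was 9.11 ± 0.12 in GFP+ cells and 8.90 ± 0.23 in GFP- cells (SD, n = 3 each). The differences of 0.03, 0.33 and 0.26 averaged 0.21, with a 95% interval of -0.15 to 0.56 that includes 0 and lies below a 2-fold difference (standard error 0.14, adjusted p = 0.571, limma). After quantile normalization the mean difference of Nlgn2 was -0.05.

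**Figure D2:**
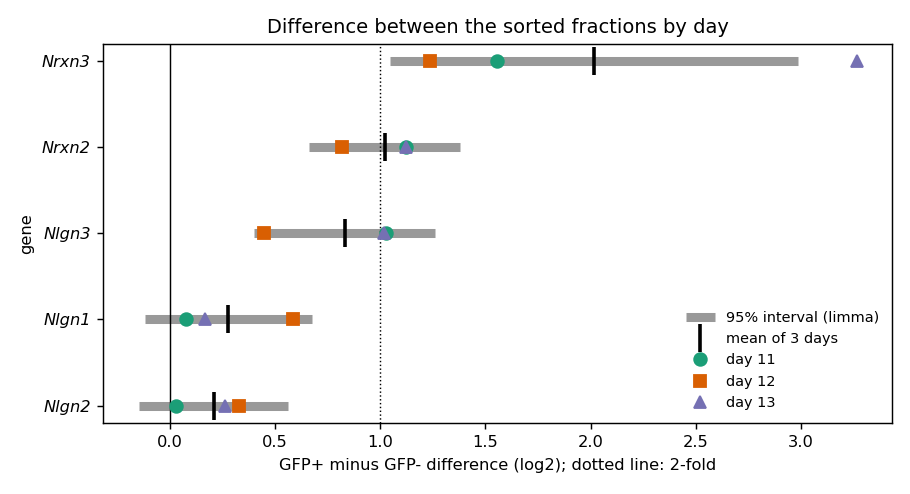
GFP+ minus GFP- difference (log2, horizontal axis) of each gene, ordered by size, with a point for each day, a black mark for the mean of 3 days and a gray bar for the 95% interval from limma. The intervals of Nlgn1 and Nlgn2 cross 0, and the day 13 difference of Nrxn3, 3.26, lies apart from its other days.

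Neighbors in the order of the differences were compared within days with an exact two-sided sign-flip permutation test, which cannot give a p under 0.25 with 3 days. Nrxn3 exceeded Nrxn2 by 0.43, 0.42 and 2.14 in the order of the days, and the ranges of their daily differences did not overlap (exact p = 0.25). Nrxn2 exceeded Nlgn3 by 0.09, 0.37 and 0.10, and their ranges overlapped (exact p = 0.25). Nlgn3 minus Nlgn1 was 0.95, -0.14 and 0.85, so the order of these neuroligins was turned on day 12 (exact p = 0.5). Nlgn1 minus Nlgn2 was 0.05, 0.26 and -0.10, and their ranges overlapped (exact p = 0.75). With a smallest p of 0.25 and an order taken from these same differences, the test could set no pair apart. The difference between fractions was also fitted as a slope with day. For Nrxn3 the slope was 0.86 per day (standard error 0.36, unadjusted p = 0.0527, adjusted p = 0.999, limma), while from day 11 to day 13 its signal changed by -0.14 in GFP+ cells and by -1.86 in GFP- cells. None of the 5 slopes passed at an adjusted p of 0.05, where the share of all genes was 0%, and 0 of the 5 had an unadjusted p under 0.05, against 0.542% of all genes (108 genes).

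The bases upstream of the annotated starts were also described. The RefSeq promoter table of GRCm38.p6 held 6 windows of 250 bases upstream of a start for 3 of the 5 genes, Nrxn3, Nlgn1 and Nlgn2, so Nrxn2 and Nlgn3 are named only. The windows of Nrxn3 lie before 3 starts on chromosome 12, and the last start is 1017979 bases downstream of the first. The annotated gene begins at base 88722701, ahead of the first window (chr12:88794254-88794503), so none of the windows covers that end. Its first and second windows had 45.6% and 46.8% G and C with 2 and 5 CpG, and the window of the last start had 60% with 12 CpG, against medians of 52.4% and 6 CpG over all 32817 windows. This last Nrxn3 window (plus strand, chr12:89812233-89812482) is shown for the gene with the largest difference. The window of the second Nlgn1 start (minus strand, chr3:26153987-26154236) and that of Nlgn2 (minus strand, chr11:69837785-69838034) are shown for the 2 genes with the smallest differences, with motif matches in capitals.
Nrxn3 last start: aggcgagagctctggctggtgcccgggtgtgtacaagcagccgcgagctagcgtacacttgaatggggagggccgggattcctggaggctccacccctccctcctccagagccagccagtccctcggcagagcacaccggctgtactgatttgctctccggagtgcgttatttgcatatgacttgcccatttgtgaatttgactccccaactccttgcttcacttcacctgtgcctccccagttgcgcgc
Nlgn1 second start: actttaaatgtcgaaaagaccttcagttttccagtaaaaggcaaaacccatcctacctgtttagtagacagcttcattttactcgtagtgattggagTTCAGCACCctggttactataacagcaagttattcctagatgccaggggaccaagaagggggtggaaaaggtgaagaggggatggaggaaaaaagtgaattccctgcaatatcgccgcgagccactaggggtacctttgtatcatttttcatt
Nlgn2 start: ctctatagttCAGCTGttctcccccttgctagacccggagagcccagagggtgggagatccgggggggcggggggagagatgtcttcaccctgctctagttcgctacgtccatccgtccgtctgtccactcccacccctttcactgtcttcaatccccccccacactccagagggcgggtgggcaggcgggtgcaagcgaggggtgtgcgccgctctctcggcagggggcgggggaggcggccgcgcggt

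Fixed letter strings were searched on both strands of each window. The left part of the site of REST, a repressor of neuronal genes, written TTCAGCACC, was found once, in the second Nlgn1 window, and in 99 of all windows (0.302%). The E-box CAGCTG, a string bound by proneural factors, was found once, in the Nlgn2 window, and in 13% of all windows. The homeodomain core TAATTA was in 0 of the 6 windows and in 4.85% of all windows. The 3 windows of Nrxn3 held none of the strings. The first Nlgn1 window had 53.6% G and C with 9 CpG, the second had 43.6% with 5 CpG, and the Nlgn2 window had the highest share at 67.6% with 18 CpG. A match is a description of letters, and the arrays give no measure of binding or of which start was used.

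The other genes of the pathway were read from the same fit, in which 0 of all 19938 genes passed when day 13 was left out, so each call named here was lost without that day. The proteins that meet neurexins in the synaptic cleft were covered by 26 of 26 listed genes. They include the latrophilins, the calsyntenins, the LRRTM proteins, the cerebellins and C1q-like proteins and the neurexophilins. Of these, 1 was higher, 0 were lower and 25 did not pass, and the median difference was 0.26. Without day 12 the median was 0.0829 and 4 genes passed, without day 11 there were 3, and with no term for day, after median centring or after quantile normalization there were 0. Calls over all 19938 genes moved as well, from 159 higher and 113 lower in the main fit. They were 930 and 229 without day 12, 381 and 171 without day 11, and 84 and 41 with no term for day. After quantile normalization they were 52 and 99. Clstn3, which encodes a calsyntenin of the postsynaptic membrane, had signals of 7.62, 7.93 and 7.52 in GFP+ cells and 6.37, 6.91 and 6.46 in GFP- cells on day 11, day 12 and day 13, without overlap. Its difference was 1.11 with a standard error of 0.14 (adjusted p = 0.034, limma). Nxph1, which encodes a secreted ligand of alpha-neurexins, had 8.29, 6.62 and 7.01 in GFP+ cells and 4.89, 5.30 and 4.95 in GFP- cells, and its difference of 2.26 did not pass (adjusted p = 0.061, limma). The latrophilin genes Adgrl1 and Adgrl3 differed by 1.10 (adjusted p = 0.071) and 0.90 (adjusted p = 0.059), and Lrrtm3, a postsynaptic leucine-rich repeat protein gene, by 0.90 (adjusted p = 0.116), none past the test in limma. The 26 differences ran from -0.80 to 2.26, with 11 of 26 genes higher and 7 of 26 lower on all 3 days, against 16.9% and 21.4% of all genes.

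Inside the presynaptic terminal, the neurexin tail connects to the scaffold of CASK, MINT and LIN7 proteins and to synaptotagmin. Of 9 listed genes 8 were measured, 1 was higher, 0 were lower, and the median difference was 0.83. Without day 12 there were 5 past the test, without day 11 there were 4 and after median centring 0. Over all genes, 930 were called higher without day 12 and 381 without day 11, against 159 in the main fit. Syt1, which encodes the calcium sensor of synaptic vesicle release, had signals of 10.44, 9.83 and 9.90 in GFP+ cells and 8.02, 8.15 and 6.99 in GFP- cells on day 11, day 12 and day 13. Its fractions did not overlap, the day 13 GFP- array was the lowest, and the difference was 2.34 (standard error 0.25, adjusted p = 0.028, limma). The next values were 1.11 for Apba2 and 0.98 for Apba1, which encode MINT adaptors, 0.88 for Lin7a and 0.79 for Caskin1, a CASK partner, with adjusted p of 0.124, 0.057, 0.182 and 0.089 in limma, so none of these passed.

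Behind the postsynaptic membrane, neuroligins bind PSD-95 family scaffolds and, at inhibitory synapses, gephyrin. The list takes in the wider scaffold, among it the Shank and Dlgap genes and Lhfpl4, so not every member is a direct binder of the tail. Of 17 listed genes 15 were measured, 2 were higher, 0 were lower, and the median difference was 0.60. Without day 12 there were 6 past the test, with no term for day there was 1 and after median centring there were 0. Over all genes, 930 were called higher without day 12 and 84 with no term for day, against 159 in the main fit. Shank1, which encodes a core scaffold of excitatory synapses, had 7.15, 7.13 and 6.92 in GFP+ cells and 5.89, 5.72 and 5.83 in GFP- cells on day 11, day 12 and day 13. That difference was 1.25 with a standard error of 0.14 (adjusted p = 0.031, limma), and it was over 2-fold on each day. Dlg2, which encodes PSD-93, differed by 1.23 (standard error 0.18, adjusted p = 0.045, limma), and the study had picked this gene as a candidate on these arrays, so it is not independent evidence. The genes that did not pass included Dlg3 at 0.97, Dlg4, which encodes PSD-95, at 0.92, Dlgap2 at 0.91 and Lhfpl4, which encodes a partner of Nlgn2 at inhibitory synapses, at 0.88, with adjusted p of 0.066 for Dlg3, 0.060 for Dlg4 and Lhfpl4 and 0.102 for Dlgap2 in limma.

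The other pathway lists held no gene past the test in limma. At an unadjusted p under 0.05, where 9.58% of all genes were higher and 5.96% lower, they held 1 of 5 inhibitors and proteases higher and 0 lower, and 8 of 10 splicing factors higher and 1 lower. The same counts were 9 of 26 higher and 5 lower for the proteins of the cleft, 5 of 8 higher and 0 lower for neurexin tail partners, and 9 of 15 higher and 0 lower for neuroligin tail partners. Without day 12 and without day 11, 2 and 3 of the splicing factors passed. In both of those fits more of all genes passed than in the main fit, as given above. For the MDGA proteins, which mask neuroligins, and the proteases that cut neurexins and neuroligins, 5 of 6 listed genes were measured, and the median difference was -0.18. The sign of this median turned without day 13 (0.0469), and it was -0.12 without day 12 and -0.33 without day 11. Mdga2 differed by 0.62 (adjusted p = 0.114), Adam17 by -0.37 (0.474), Mmp9 by -0.31 (0.652) and Adam10 by 0.26 (0.708). Of the splicing factors known to act on neurexin pre-mRNA, 10 of 10 were measured, and on all 3 days GFP+ cells had the higher signal for 8 of them and the lower signal for 1, against 16.9% and 21.4% of all genes. The 1 was Ptbp1, a splicing repressor gene of non-neuronal cells, at -0.80 (0.061), named after its values were seen. Rbfox3 is also on the list of general neuronal markers. Their median difference was 0.64, with 0.30, 0.55 and 1.20 on day 11, day 12 and day 13, and it was 0.33 without day 13. Nova1 had the largest difference at 1.72, with a range of 0.60 to 2.84 over the days (adjusted p = 0.115). Rbfox2 differed by 1.29 (0.060), Rbfox1 by 1.06 (0.126) and Khdrbs2, which encodes the STAR protein SLM1, by 0.98 (0.119). Adjusted p-values are from limma.

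**Figure D3:**
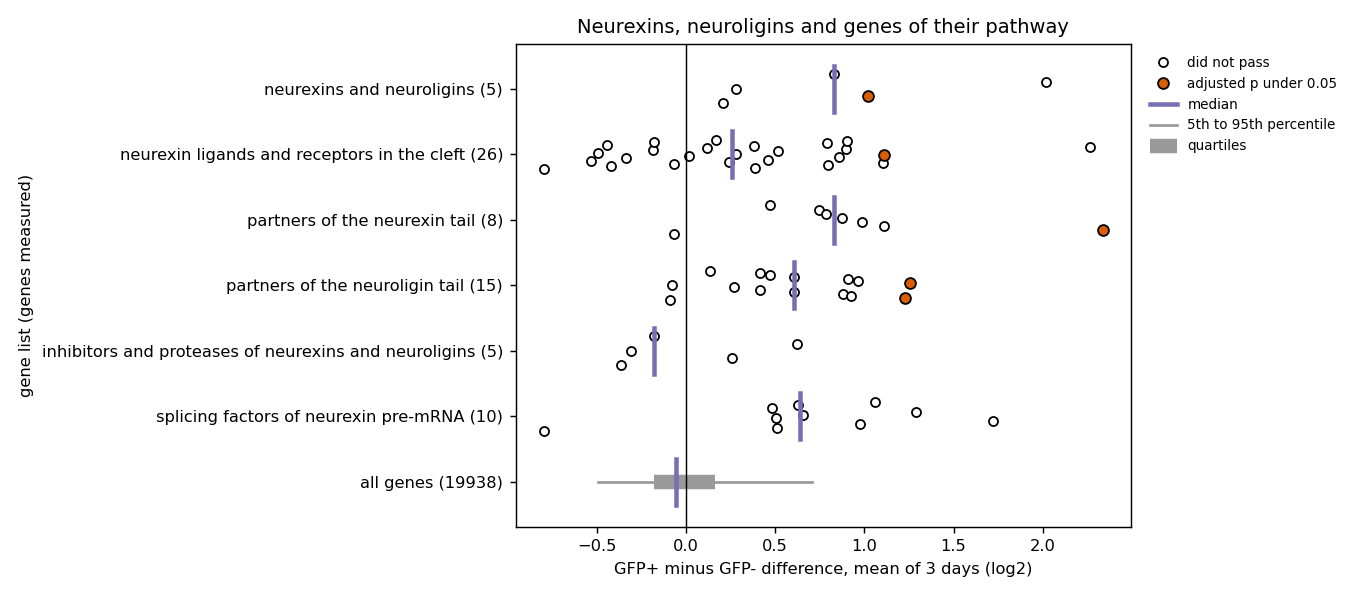
GFP+ minus GFP- difference (log2, mean of 3 days, horizontal axis) of the neurexins and neuroligins and of 5 lists of their pathway, with filled points for genes past the test, open points for genes that did not pass, bars for medians and, for all 19938 genes, the quartiles and the 5th to 95th percentile. Filled points are Nrxn2, Clstn3, Syt1, Shank1 and Dlg2, and the medians run from -0.18 for inhibitors and proteases, which is 0.0469 without day 13, to 0.83 for neurexin tail partners.

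Some markers of cell types also differed between the fractions. In sorted bulk fractions, fewer cells of a type and less RNA per cell cannot be told apart. The summed signal of 12 general neuronal markers (log2 of the sum) was 13.16, 13.38 and 13.02 in GFP+ cells and 12.43, 12.48 and 11.44 in GFP- cells in the order of the days, with 2 of 12 genes higher past the test. For 7 interneuron markers it was 12.77, 11.40 and 12.31 in GFP+ cells and 9.88, 9.35 and 9.65 in GFP- cells, with 6 of 7 higher. The 10 radial glial markers gave 12.32, 13.17 and 12.10 in GFP+ cells and 13.36, 13.74 and 13.32 in GFP- cells, with 5 of 10 lower. Each sum adds signals on the linear scale, so the brightest probe sets weigh most. Among the radial glial markers these were Fabp7 and Vim. By day, Fabp7 differed by -0.88, 0.06 and -1.21 and Vim by -1.17, -0.93 and -1.08. Of 6 deep-layer neuron markers, the class the reporter was made to sort, only Bcl11b itself passed, and the median difference was 0.53 (1 of 6 also at an unadjusted p under 0.05). The lists for telencephalic progenitors, mesenchyme and endothelium, microglia and blood, oligodendrocytes and astrocytes, and pluripotent cells held 0 genes past the test in limma, and at most 2 of a list had an unadjusted p under 0.05. The part of these markers in the differences of neurexins and neuroligins was not tested.

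The difference of Nrxn3 was above the median difference of the 12 neuronal markers on each day, by 0.82, 0.42 and 1.61 on day 11, day 12 and day 13. For Nrxn2 the same comparison gave 0.39, 0.00 and -0.53, so it was above that median on day 11, level with it on day 12 and below it on day 13. Nlgn3 was above it on day 11 by 0.29 and below it on the other days, at -0.37 and -0.63. Nlgn1 and Nlgn2 were below it on every day, at -0.66, -0.23 and -1.48 for Nlgn1 and at -0.71, -0.48 and -1.39 for Nlgn2. The median of the neuronal markers was itself 0.74, 0.82 and 1.65, with its largest value on the day of the least alike GFP- array.

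**Figure D4:**
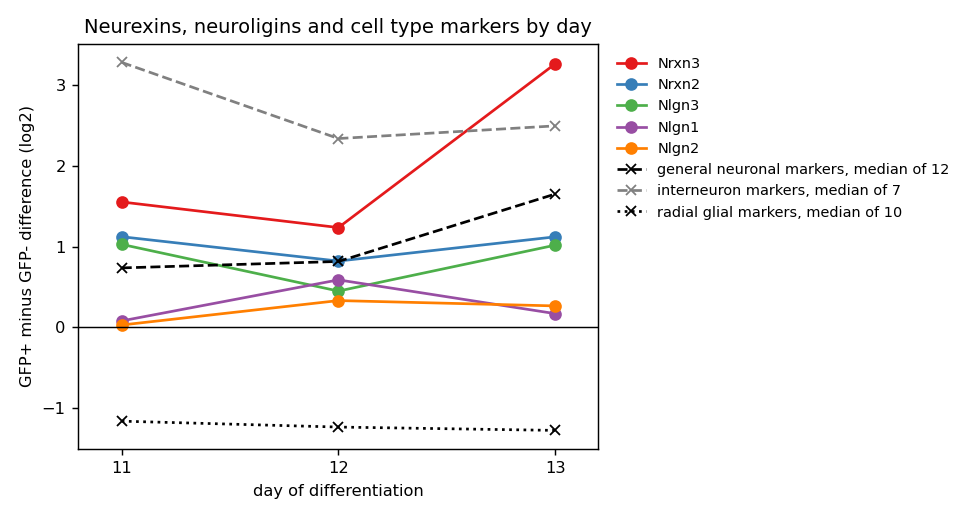
GFP+ minus GFP- difference (log2, vertical axis) on day 11, day 12 and day 13 for each of the 5 genes, with the medians of 3 marker lists as broken lines, from 1 array per fraction and day. Nrxn3 and the neuronal markers have their largest difference on day 13, and the radial glial median stays below 0 at -1.16, -1.24 and -1.28.

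The genes nearest to each neurexin or neuroligin over the 6 arrays were found by the root mean square difference of the signals after the mean of each gene was removed. Nrxn3 was nearest to Ripor2 (0.139, Pearson r = 0.996) and to Gad2, which encodes a GABA-synthesizing enzyme and is 1 of the 7 interneuron markers (0.144, r = 0.996). For Nrxn2 the nearest were Trim46, a gene of the axon initial segment (0.0895, r = 0.987), and Rps6ka5, a kinase gene (0.0928, r = 0.989). Nlgn1 had Camk2d, which encodes a subunit of a calcium/calmodulin-dependent kinase (0.0986, r = 0.990), and the adhesion receptor gene Adgrb3 (0.123, r = 0.953). Nlgn2 had Ssbp4 (0.0222, r = 0.993) and Prok2, which encodes a secreted signaling peptide (0.0464, r = 0.970). Nlgn3 had Rab11a, a gene of endosome recycling (0.0602, r = 0.994), and Kmt5b, which encodes a histone methyltransferase (0.0626, r = 0.993). Between the 5 genes themselves, r was highest for Nrxn2 with Nrxn3 at 0.93 and lowest for Nlgn1 with Nlgn2 at -0.39. These correlations describe 6 arrays that share 2 fractions and 3 days, and they are given with no test.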

How the data were processed

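The 2 sorted fractions, with 1 array each per day, were hybridized to GeneChip Mouse Gene 1.0 ST arrays. The deposited values are log2 signals that the authors computed with RMA16 (GeneSpring). Joint normalization of the arrays and the annotation version: not given in the sources used here. Symbols came from the platform annotation. Of 28853 probe sets, 21789 had 1 symbol, 1621 several and 5443 none. By Entrez ID 21698 were matched to RefSeq, and 0 symbols changed. A gene with several probe sets (999 genes) was represented by that of the highest mean, and dim probe sets were kept.

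These log2 values went into linear models in limma 3.58.1 under R 4.3.3 (lmFit and eBayes), with terms for fraction and for each day and 2 residual degrees of freedom. Adjusted p is Benjamini-Hochberg over 19938 genes. The study states in general that its data come from independent experiments, and the labels do not say whether the 3 days are separate cultures. A p-value rests on the spread between these days, moderated toward a variance shared by all genes. With a day left out, fewer residual degrees of freedom remain, and the p-value leans more on that shared variance. Genes over 2-fold, the cut the study used on these arrays, were counted with no test. The pairing comes from the day in the labels, and after the mean of each fraction was removed, the 2 arrays of a day correlated over all genes with r of 0.112 (day 11), 0.558 (day 12) and 0.368 (day 13). Precision is limited by the number of arrays.

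The 5 genes and the lists were chosen with earlier results of these data known. Named are the 5 genes, Bcl11b, every gene of a pathway list past the test with up to 4 of the largest other differences, and the 2 genes nearest to each member. The alternatives tried were no term for day, leaving out each day, leaving out the day 13 GFP- array, median centring, quantile normalization, averaged probe sets per gene, 2 filters against dim genes, eBayes with trend and robust settings, and Student's t-test. The study names that t-test for its in vitro and in vivo experiments and names no test for the arrays. The fit was tested on simulated data. Promoter windows are from RefSeq, GRCm38.p6, and protein sequences were not analysed here.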

Additional observations from a re-analysis of the deposited data

How the results depend on the processing

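Over 12 alternatives the GFP+ minus GFP- difference was positive in 12 for Nrxn2 (0.74 to 1.12), Nrxn3 (1.39 to 2.41), Nlgn1 (0.11 to 0.38) and Nlgn3 (0.56 to 1.02), and in 11 for Nlgn2 (-0.05 to 0.30). The fits with no term for day, averaged probe sets, the 2 filters, the trended and robust eBayes and the t-test left each difference unchanged. They alter only the error or the genes tested, so the sign in these fits was fixed in advance. Where calls changed, the cause was not tested. The fit with no replicate block for the day called Nrxn2 (adjusted p = 0.0464) and no other of the 5 genes, and 84 genes higher and 41 lower, against 159 and 113. With each day left out in turn, the differences were 0.97 to 1.12 for Nrxn2, 1.39 to 2.41 for Nrxn3 and 0.73 to 1.02 for Nlgn3, 0 to 3 of the 5 passed, 1 to 3 were over 2-fold, and 0 to 930 genes were higher and 0 to 229 lower. Without day 11 Nrxn3 passed at 2.25 (adjusted p = 0.000224), and without day 12 at 2.41 (adjusted p = 0.00239). These p-values lean on the variance shared by all genes more than on the spread of Nrxn3 between days. Without day 11 its remaining daily differences were 1.24 and 3.26, and its standard error was 0.354. For the others of the 5 genes that standard error was 0.303 to 0.307. After median centring Nrxn2 did not pass at 1.08 (adjusted p = 0.119), 0 of the 5 and 0 genes passed, and the slopes of Nrxn2 (0.0584 per day) and Nlgn3 (0.0542 per day) turned sign. After quantile normalization Nrxn2 did not pass at 0.74 (adjusted p = 0.103), Nlgn2 was at -0.0488, 0 of the 5 passed, 1 was over 2-fold, 52 genes were higher and 99 lower, and the slopes of Nlgn1 (-0.126 per day) and Nlgn2 (-0.0461 per day) turned sign. With genes above the 20th percentile, which tests fewer genes, Nrxn3 passed at 2.02 (adjusted p = 0.0342), 2 of the 5 passed, and 342 genes were higher and 208 lower. With genes above the median, Nrxn3 passed at 2.02 (adjusted p = 0.00159) and Nlgn3 at 0.83 (adjusted p = 0.0386), 3 of the 5 passed, and 653 genes were higher and 319 lower. A trended and robust eBayes gave Nrxn2 at 1.02 (adjusted p = 0.0512) and Nrxn3 at 2.02 (adjusted p = 0.00011), with 549 genes higher and 510 lower. Student's t-test, which the study does not name for the arrays, gave an unadjusted p under 0.05 for 2 of the 5 and 1756 genes. After Benjamini-Hochberg this held for 0 of the 5 and 0 genes, with Nrxn2 at 1.02 (adjusted p = 0.211). Without the day 13 GFP- array and with no replicate block, Nrxn3 passed at 1.42 (adjusted p = 0.0251), 2 of the 5 passed and 1 was over 2-fold. The 6 arrays limit the precision, and a dim signal has no stated background here.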
